A study of Mus musculus with 6 samples.

Results

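Telomeres are the repeat-rich ends of chromosomes, and the genes described here encode the proteins that cap and extend them. They were the rows of the RNA-seq table with 10 gene names: the shelterin genes Terf1, Terf2, Terf2ip, Tinf2, Acd, Pot1a and Pot1b (7 genes), and Tert, Dkc1 and Rtel1 (3 genes). The table held all 10 among its 24421 genes, and all 10 passed the filter on low values. They were chosen by name, with earlier results of these data known.

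RNA was sequenced from Pml-/- cells (2 libraries) and wild-type cells (2 libraries) of the E14 mouse embryonic stem cell line. Paraquat, which cycles electrons to oxygen and so produces superoxide, was given to the cells of all 4 libraries at 10 µM for 15 h, so the comparison is of genotypes under treatment and holds no untreated cells. The medium of both genotypes contained serum, CHIR99021 and PD0325901, which inhibit GSK3 and MEK, and leukemia inhibitory factor. The labels and notes used here do not say how Pml was disrupted or whether the mutant cells are a single clone. Nothing states that the libraries of a genotype were grown as separate cultures, so the spread behind intervals and p-values may be technical. That spread is of these 4 libraries alone, and limma draws each gene's variance toward that of genes at similar levels. The other 2 samples of the series hold chromatin labelled by APEX-PML and were not analysed here.

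Shelterin coats telomeric repeats and keeps chromosome ends from being read as DNA breaks. Telomerase adds new repeats, and embryonic stem cells keep it active. PML, the scaffold of PML nuclear bodies, has been described at telomeres in mouse embryonic stem cells and in tumour cells that lengthen telomeres by recombination, so the labelled genotypes ask whether the transcripts of the capping and extending proteins differ when Pml is disrupted.

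Depth was 38150397 and 43715807 reads in the Pml-/- libraries, against 31384794 and 44130093 reads in the wild-type libraries. Values are CPM, reads per 1000000 reads counted in genes, given for both libraries of each genotype (n = 2), replicate 1 before replicate 2. Log2 fold changes, their standard errors (SE) and 95% intervals are from the fit on log2(CPM + 1), as are the percent bounds. CPM is not divided by transcript length, so it compares the same gene between libraries and does not rank genes by transcript number. Pml itself had 78.7 and 89.7 CPM in the Pml-/- libraries, against 238 and 228 CPM in the wild-type libraries. The embryonic stem cell markers Pou5f1 (1269 and 1215 CPM in Pml-/-, 1371 and 1295 CPM in wild type) and Nanog (898 and 1026 CPM in Pml-/-, 845 and 899 CPM in wild type) were high in every library. The 8 fibroblast markers summed to 6.74 and 7.64 CPM in Pml-/- cells and to 8.63 and 8.14 CPM in wild-type cells, with Dcn at 0 reads throughout. In bulk RNA, fewer cells of a type and less RNA per cell cannot be told apart. The entry for the library kit of wild-type replicate 2 names only a DNA kit. Whether that library was made differently was not tested; results without it are given where they matter.

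The promoters of Pot1a, Pot1b and Tert are shown to identify the genes that the description turns on: the paralogs for which each Pml-/- library was below each wild-type library, and the catalytic subunit of telomerase. Each is the 250 bases before the most upstream start listed for the gene in a RefSeq promoter table (build GRCm38.p6, the NCBI name of mm10), written 5′ to 3′ in the direction of transcription. RefSeq's gene spans begin further upstream than that start for the paralogs, so the last 59 bases for Pot1a and the last 11 for Pot1b fall inside the annotated gene. Capitals mark the GC box letters GGGCGG, the E-box letters CACGTG or the telomere repeat unit TTAGGG, each searched on both strands, and no marked matches overlap.
Pot1a, chr6:25809219-25809468, minus strand: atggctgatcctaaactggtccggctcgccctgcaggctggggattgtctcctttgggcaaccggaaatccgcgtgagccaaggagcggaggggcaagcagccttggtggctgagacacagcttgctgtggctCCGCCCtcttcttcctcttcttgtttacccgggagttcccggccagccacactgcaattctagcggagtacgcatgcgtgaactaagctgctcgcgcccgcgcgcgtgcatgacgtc
Pot1b, chr17:55712637-55712886, minus strand: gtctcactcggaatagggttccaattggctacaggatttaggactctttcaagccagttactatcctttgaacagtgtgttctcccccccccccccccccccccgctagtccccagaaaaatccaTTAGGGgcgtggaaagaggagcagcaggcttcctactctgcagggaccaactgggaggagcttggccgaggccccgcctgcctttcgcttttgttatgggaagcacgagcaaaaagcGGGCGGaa
Tert, chr13:73626661-73626910, plus strand: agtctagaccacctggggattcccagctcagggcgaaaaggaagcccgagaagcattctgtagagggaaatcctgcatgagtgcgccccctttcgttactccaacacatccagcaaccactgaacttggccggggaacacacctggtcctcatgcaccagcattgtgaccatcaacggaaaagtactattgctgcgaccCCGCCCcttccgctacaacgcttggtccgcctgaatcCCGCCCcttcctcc
Pot1a and Pot1b each held 1 GC box and Tert held 2; that of Pot1b lies in the bases inside the annotated gene. Of the 9 members with an entry in the promoter table, 4 held a GC box (Pot1a, Pot1b, Rtel1 and Tert), against 33.0% of 27025 promoters of the same length, 1 per gene. The telomere repeat unit was found in 1 of the 9, Pot1b, against 9.26% of promoters. The E-box was found in 0 of the 9, against 6.04% of promoters. These matches describe letters only.

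None of the 10 transcripts passed the test between genotypes. Limma on log2(CPM + 1) called 0 of 10 at an adjusted p of 0.05, where 5.41% of all 12710 tested genes were called. None of the 10 reached an unadjusted p of 0.05 either, a level that 19.3% of tested genes reached. The count test of edgeR on the recovered reads called 0 of 10 (4.19% of genes called), with 0 at an unadjusted p of 0.05 (17.8% of genes). DESeq2 also called 0 of 10, again with 0 at an unadjusted p of 0.05 (9.35% of genes with a read). It called 2.61% of the 18761 genes with a read. Only 12214 genes were given an adjusted p by DESeq2, so the share among those was higher. By the authors' deposited table, none of the 10 had a false discovery rate under 0.05, against 3.80% of its genes, and the lowest rate was 0.754, for Pot1a.

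**Figure D1:**
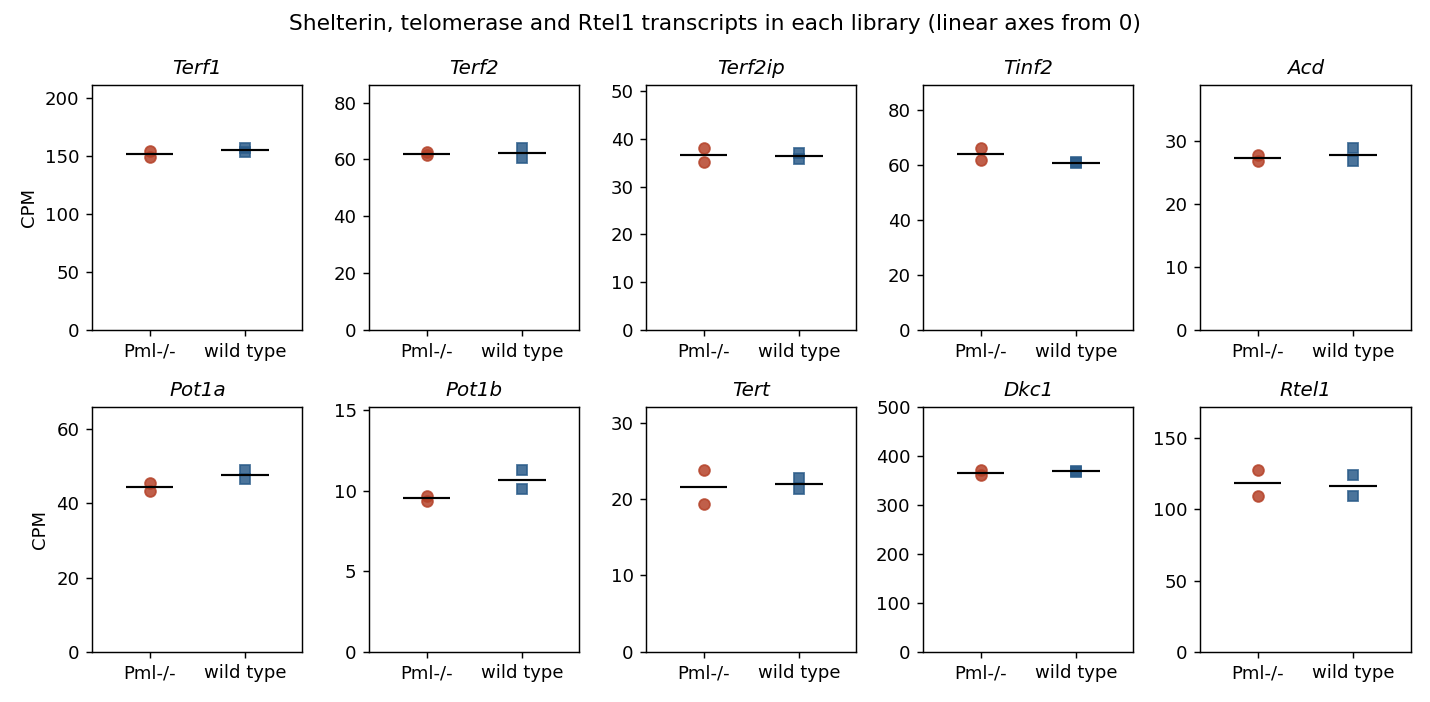
CPM of each gene (y axes, linear and starting at 0) in the 2 Pml-/- libraries (circles, left) and the 2 wild-type libraries (squares, right), with a line at each mean. Relative to level, replicates lie farthest apart for Tert in Pml-/- and for Rtel1 in both genotypes. The libraries of Pot1a, Pot1b and Tinf2 do not overlap between genotypes, those of the other 7 do.

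The differences were small in size. The median absolute log2 fold change (Pml-/- minus wild type) was 0.027 over the 10 genes, beside 0.086 over all tested genes, and 8 of the 10 lay under that of all tested genes. Of the 10, 7 had a lower and 3 a higher mean in Pml-/- cells, with a median log2 fold change of -0.016, beside -0.0029 over all tested genes. In 9 of the 10, at least 1 of the gaps between replicates of a genotype was larger than the difference between genotypes; the exception was Pot1a. The genotypes' libraries did not overlap for 3 of 10, where 49.3% of tested genes showed no overlap.

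The intervals give the size of change that the fit leaves possible, with each gene's variance drawn toward that of genes at similar levels. Intervals from a gene's own libraries alone were not computed, and could be wider where replicates lie far apart, as for Tert and Rtel1. For 9 of the 10 genes the whole 95% interval of the fold change lay within 1.2-fold in either direction. The exception was Pot1b, the gene with the fewest reads, whose interval ran from 23.4% lower to 6.53% higher in Pml-/- cells. Standard errors ranged from 0.042 for Dkc1 to 0.111 for Pot1b on the log2 scale. These intervals are per gene and are not adjusted over the 10.

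**Figure D2:**
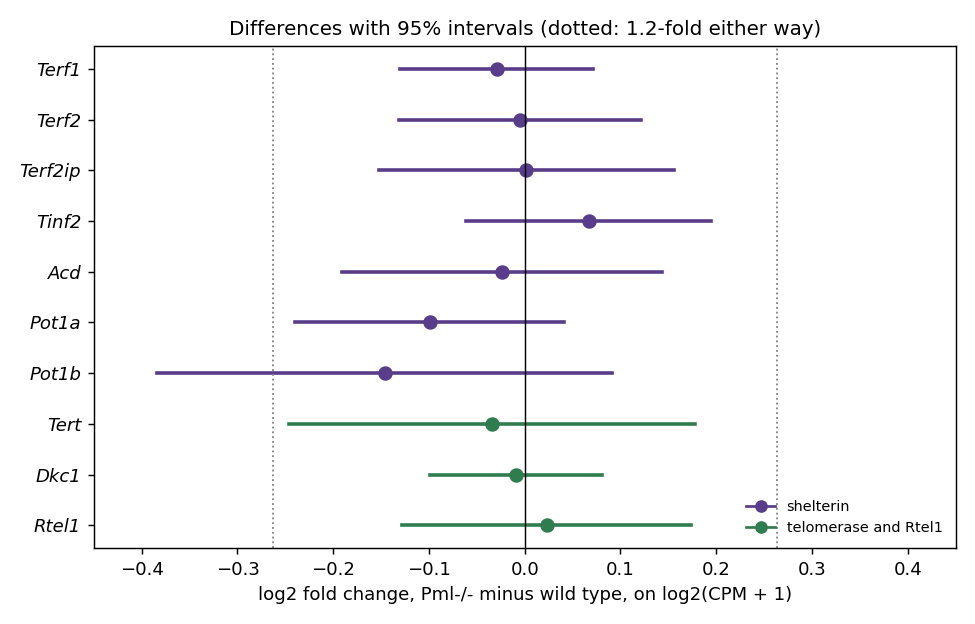
Log2 fold change of each gene (x axis, Pml-/- minus wild type, limma on log2(CPM + 1)) as a point with its 95% interval as a bar; dotted lines mark 1.2-fold in either direction. Every interval crosses 0, and that of Pot1b alone crosses a dotted line, on the side of lower values in Pml-/- cells.

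Terf1 and Terf2 encode the proteins that bind the duplex part of the telomere. Terf1 (mm10, chromosome 1, 15805546 to 15844052) had 149 and 154 CPM in the Pml-/- libraries, against 156 and 154 CPM in the wild-type libraries. The libraries overlapped, with a log2 fold change of -0.029 (SE 0.047, limma adjusted p = 0.795) and an interval from 8.64% lower to 5.08% higher in Pml-/- cells. Terf2 (chromosome 8, 107069400 to 107096548), whose product helps fold the telomere end into a protective loop, had 61.4 and 62.7 CPM in Pml-/-, against 63.9 and 60.6 CPM in wild type. Its Pml-/- libraries lay between the wild-type libraries. The log2 fold change was -0.0048 (SE 0.059, limma adjusted p = 0.978), within an interval from 8.67% lower to 8.77% higher.

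Terf2ip (chromosome 8, 112011359 to 112020528) encodes RAP1, which binds the TERF2 protein. It had 38.0 and 35.0 CPM in the Pml-/- libraries, against 37.1 and 35.8 CPM in the wild-type libraries, so that here the wild-type libraries lay between those of the mutant. Of the 10, it had the smallest difference, a log2 fold change of 0.0015 (SE 0.072, limma adjusted p = 0.995). The proportion of the pair overlapped between genotypes, with 0.618 and 0.559 Terf2ip reads per Terf2 read in Pml-/-, against 0.581 and 0.590 in wild type.

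Tinf2 and Acd encode the bridge of the complex: TINF2 holds TERF1 and TERF2 together, and ACD, also known as TPP1, ties POT1 proteins to TINF2 and recruits telomerase. Tinf2 (chromosome 14, 55676208 to 55682159) had 65.9 and 61.6 CPM in Pml-/-, against 61.1 and 60.5 CPM in wild type. Both mutant libraries lay above both wild-type libraries, as they did in 23.8% of tested genes. The log2 fold change was 0.067 (SE 0.060, limma adjusted p = 0.602), with an interval from 4.14% lower to 14.5% higher. The annotated span of Gmpr2, a nucleotide-metabolism gene, covers all 5952 bases of Tinf2, and no source used here says if reads were counted by strand, so those of the pair may not be told apart. Gmpr2 had 26.9 and 23.6 CPM in Pml-/-, against 26.4 and 25.9 CPM in wild type. Acd (chromosome 8, 105698155 to 105701228) had 27.9 and 26.9 CPM in Pml-/-, against 28.8 and 26.9 CPM in wild type, with overlapping libraries (log2 fold change -0.024, SE 0.079, limma adjusted p = 0.909). Acd gave 0.423 and 0.436 reads per Tinf2 read in Pml-/-, against 0.472 and 0.445 in wild type. These do not overlap, but with 2 libraries against 2 the exact two-sided permutation test cannot go below p = 0.333, the value it gave.

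Pot1a and Pot1b encode the proteins that bind the single-stranded end, a function that mice split over a pair of genes where humans have a single POT1. In mouse, POT1a is known to restrain damage signalling at telomeres and POT1b to limit trimming of the C-rich strand. Pot1a (chromosome 6, 25743940 to 25809277) had 43.4 and 45.5 CPM in the Pml-/- libraries, against 49.0 and 46.5 CPM in the wild-type libraries. Its log2 fold change was -0.10 (SE 0.066, limma adjusted p = 0.450), and the interval ran from 15.3% lower to 2.85% higher. Pot1b (chromosome 17, 55651190 to 55712647) had 9.38 and 9.70 CPM in Pml-/-, against 11.3 and 10.1 CPM in wild type. This was the largest difference of the 10, a log2 fold change of -0.15 (SE 0.111, limma adjusted p = 0.523). Without wild-type replicate 2 the log2 fold changes were -0.14 for Pot1a and -0.22 for Pot1b. Without wild-type replicate 1 they were -0.062 and -0.073. For both genes each mutant library lay below each wild-type library, as was the case for 25.5% of tested genes, and neither was called in any of the 12 alternative analyses.

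Pot1b rested on 358 and 424 reads in Pml-/- and on 354 and 445 reads in wild type, where Pot1a had 1537 to 2051 reads per library. The pair are paralogs, and no source used here says how reads that match both were assigned, which leaves each copy's level uncertain. Pot1a gave 4.63 and 4.69 reads per Pot1b read in Pml-/-, against 4.34 and 4.61 in wild type (exact two-sided permutation p = 0.333, the smallest that 2 against 2 allow).

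Summed over the 7 shelterin genes, the level was 395.4 and 395.7 CPM in the Pml-/- libraries, against 407.6 and 393.8 CPM in the wild-type libraries. The mutant libraries lay between the wild-type libraries, and Terf1 gave 2.43 and 2.46 reads per Terf2 read in Pml-/-, against 2.45 and 2.53 in wild type.

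Tert (chromosome 13, 73626911 to 73649843) encodes the reverse transcriptase of telomerase, which copies the repeat from the enzyme's RNA. Its transcript was found in every library, with 23.8 and 19.4 CPM in Pml-/- and 22.8 and 21.3 CPM in wild type. The wild-type libraries lay between the mutant ones, whose gap of 0.28 on the log2 scale was the widest between replicates of any of the 10 genes. The log2 fold change was -0.034 (SE 0.099, limma adjusted p = 0.895), and its interval ran from 15.7% lower to 13.1% higher. It changed sign without Pml-/- replicate 2 (0.11) and without wild-type replicate 1 (0.014).

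Dkc1 (chromosome X, 75095854 to 75109776) encodes dyskerin, which binds the RNA component of telomerase and the guide RNAs that direct pseudouridine formation in ribosomal RNA. It had the most reads of the 10, up to 16336 in a library, with 362 and 371 CPM in Pml-/- and 368 and 370 CPM in wild type. The libraries overlapped and the log2 fold change was -0.0087 (SE 0.042, limma adjusted p = 0.940). Its interval was the narrowest, from 6.61% lower to 5.79% higher in Pml-/- cells. Dkc1 reads per Tert read were 15.2 and 19.2 in Pml-/-, against 16.1 and 17.4 in wild type.

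Rtel1 (chromosome 2, 181319711 to 181356616) encodes a helicase that unwinds telomere loops and G-rich secondary structures ahead of replication. It had 128 and 110 CPM in Pml-/-, against 124 and 109 CPM in wild type. Replicate 1 was above replicate 2 in both genotypes, by 0.21 on the log2 scale in Pml-/- and 0.18 in wild type, and the difference between genotypes was smaller than either gap (log2 fold change 0.023, SE 0.071, limma adjusted p = 0.903). Replicate 1 exceeded replicate 2 in both genotypes for 5 of the 10 genes, where 31.8% of tested genes did so.

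Acd, Terf2 and Terf2ip lie within 6.32 Mb of each other on chromosome 8 (mm10, 105698155 to 112020528), a chromosome on which most tested genes had lower values in Pml-/- cells. Of its 681 tested genes 70.6% had a log2 fold change below 0, beside 49.9% of genes elsewhere, and the median was -0.061, beside 0.00043 elsewhere. On chromosome 8, 52 genes were called lower and 8 higher (8.81% called), 60 in all; 28 were called without wild-type replicate 1 and 34 without Pml-/- replicate 2. Of 85 tested genes that start between Acd and Terf2ip, 11 were called lower and 2 higher (15.3%), at a median of -0.047. On the rest of chromosome 8, 41 of 596 were called lower and 6 higher (7.89%), at a median of -0.062, and 5.41% of all tested genes were called. The shelterin genes there lay above the chromosome's median by 0.037 (Acd), 0.056 (Terf2) and 0.062 (Terf2ip) on the log2 scale. With each library centred on its chromosome's median, their log2 fold changes were 0.042 for Acd, 0.061 for Terf2 and 0.067 for Terf2ip, and 0 of the 10 genes were called. The X chromosome, which holds Dkc1, went the other way: 43.0% of its tested genes were below 0, at a median of 0.026 (7.76% called). On chromosome 6, which holds Pot1a, 55.5% were below 0. Centring gave -0.032 for Dkc1 and -0.078 for Pot1a.

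**Figure D3:**
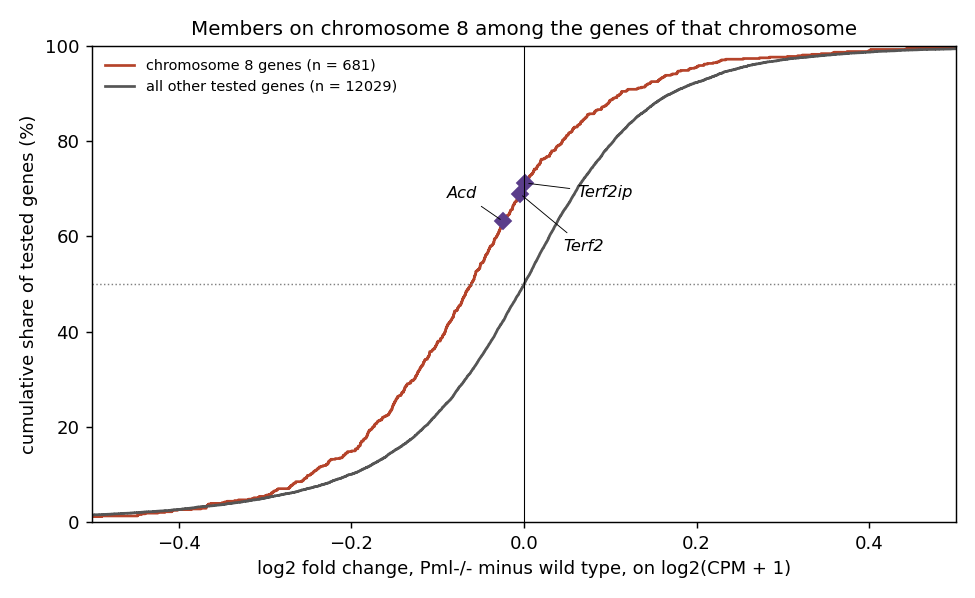
Cumulative share of tested genes (y axis, percent) up to each log2 fold change (x axis, Pml-/- minus wild type), for the 681 genes of chromosome 8 and for all other tested genes; diamonds mark Acd, Terf2 and Terf2ip on the chromosome 8 curve. The curve of chromosome 8 lies to the left of the other around its middle, and the 3 shelterin genes lie near 0, with 63.0 to 71.1% of that chromosome's genes below them.

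The nearest tested genes on either side of these 3 were not called. They were Rltpr, which overlaps Acd by 41 bases (log2 fold change -0.20, limma adjusted p = 0.410), Pard6a, a polarity gene that overlaps it by 81 bases (-0.0081, adjusted p = 0.982), the ribosome biogenesis gene Nip7 (-0.10, adjusted p = 0.312) and Cyb5b, a cytochrome b5 gene (-0.013, adjusted p = 0.912). Nip7 and Cyb5b lay 8469 and 54113 bases from Terf2. Beside Terf2ip was the lysyl-tRNA synthetase gene Kars (-0.031, adjusted p = 0.767), whose span ends 5 bases before it. On its other side the next tested gene was Mon1b, a vesicle traffic gene 1615058 bases away (-0.042, adjusted p = 0.832). All 6 log2 fold changes were below 0.

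The wider set of telomere genes gave few calls. Over 7 lists of assembly factors, partners, replication and repair proteins, damage signalling, chromatin and regulators of Tert, 92 of 99 listed genes were tested, 0 were called higher and 2 lower. That is 2.17% of them, beside 5.41% of all tested genes, and their median log2 fold change was -0.0076. Rad50, part of the MRN complex that senses chromosome ends, fell to 77.1 and 81.2 CPM in Pml-/-, against 96.6 and 99.3 CPM in wild type (log2 fold change -0.30, SE 0.054, limma adjusted p = 0.00389). Cbx3, which encodes the heterochromatin protein HP1 gamma, fell to 71.0 and 64.3 CPM in Pml-/-, against 81.9 and 87.1 CPM in wild type (-0.32, SE 0.062, limma adjusted p = 0.00709). The call of Cbx3 ended without Pml-/- replicate 2 (adjusted p = 0.0525), and that of Rad50 held in all 12 alternatives. The count of 2 was 6 without wild-type replicate 2, 5 without Pml-/- replicate 1 and 1 without Pml-/- replicate 2.

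**Figure D4:**
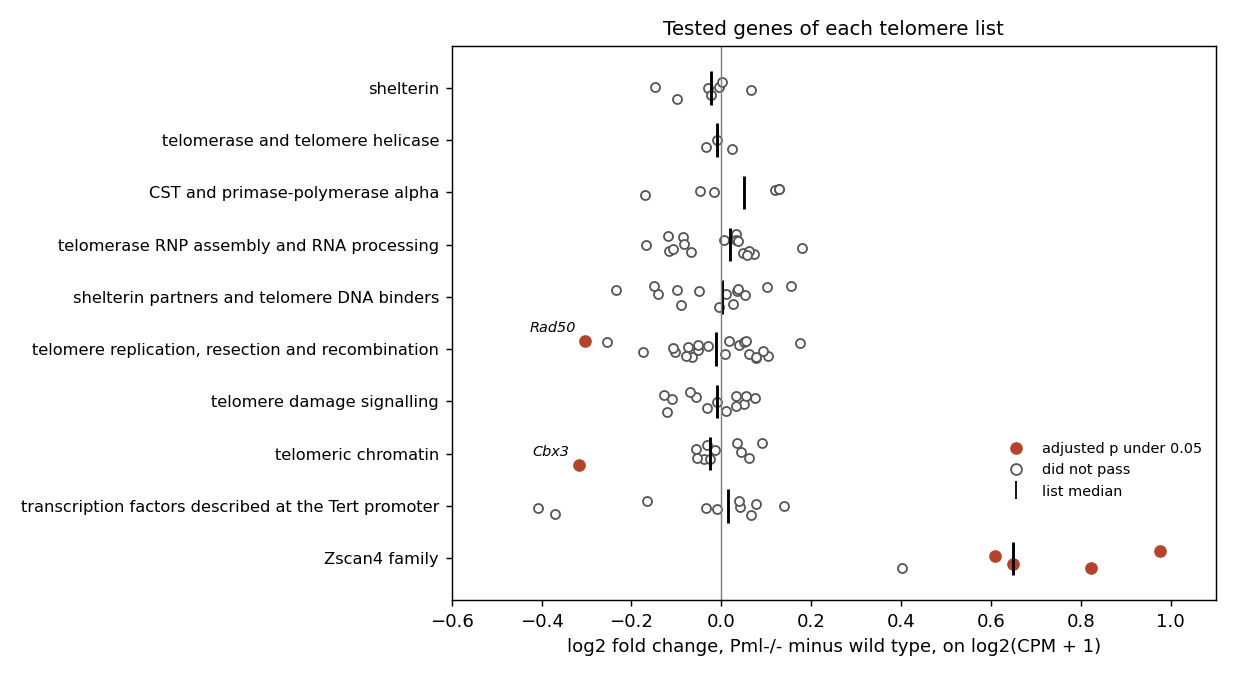
Log2 fold change (x axis, Pml-/- minus wild type, on log2(CPM + 1)) of each tested gene of the telomere lists and the Zscan4 family (rows); filled points passed an adjusted p of 0.05, and vertical bars are list medians. Shelterin, telomerase and Rtel1 genes lie between -0.15 and 0.067, and the filled points outside the Zscan4 family are Rad50 and Cbx3.

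Of the proteins that finish the lagging strand at telomeres, the CST subunits and the primase and polymerase alpha genes, 0 of 6 tested passed, with a list median of 0.051. Pola1 (log2 fold change 0.13, limma adjusted p = 0.125), Pola2 (0.13, adjusted p = 0.243) and Ten1 (0.12, adjusted p = 0.636) were higher, without overlap of libraries. Prim1 (-0.017) and Prim2 (-0.047) were lower in mean. Ctc1, the largest CST subunit, had 128 and 119 CPM in Pml-/-, against 145 and 133 CPM in wild type (log2 fold change -0.17, limma adjusted p = 0.102). It was called without wild-type replicate 2 (adjusted p = 0.0252) and without Pml-/- replicate 1 (0.0448), and with a replicate block (0.0275). Among partners of dyskerin and other telomerase assembly factors 0 of 16 passed, with a median of 0.020. Nop10, which sits beside dyskerin, had 72.6 and 88.0 CPM in Pml-/-, against 71.2 and 69.8 CPM in wild type (0.18, adjusted p = 0.197), and was called without Pml-/- replicate 1 (adjusted p = 0.0092). Among shelterin partners such as Tnks and Rif1 0 of 14 passed (median 0.0020), and among damage signalling genes such as Atm and Atr 0 of 13 passed (median -0.0094). In the replication, resection and recombination list Rad50 was the called gene of 22 (median -0.012), and in the telomeric chromatin list Cbx3 was that of 11 (median -0.025). The chromatin remodeller Atrx and the histone chaperone Daxx, both PML body proteins that act at telomeres, had log2 fold changes of 0.034 (adjusted p = 0.758) and -0.038 (adjusted p = 0.736).

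Of 10 transcription factors described at the Tert promoter 0 passed (median 0.015), and those nearest the threshold went in both directions. Klf4 was higher, at 265 and 275 CPM in Pml-/-, against 242 and 248 CPM in wild type (log2 fold change 0.14, limma adjusted p = 0.0855). Myc had 8.15 and 8.97 CPM in Pml-/-, against 13.4 and 10.2 CPM in wild type (log2 fold change -0.41, limma adjusted p = 0.0844), and Mxd1, which competes for the same partner, had 9.57 and 9.65 CPM, against 14.2 and 11.4 CPM in wild type (-0.37, adjusted p = 0.0871). Without wild-type replicate 2 these were called (adjusted p = 0.00278 for Myc and 0.00793 for Mxd1), as was the helicase gene Wrn of the repair list, on chromosome 8 (0.0313). With a replicate block Myc (0.0221) and Mxd1 (0.0256) were also called. Tert was called in neither.

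Genes of the Zscan4 family, which lengthen telomeres through recombination in mouse embryonic stem cells and mark 2-cell-like cells, rose in Pml-/- cells. Of 5 tested, 4 were called higher and 0 lower, with a median log2 fold change of 0.65, where 1.95% of all tested genes were called higher. Zscan4c rose to 4.98 and 4.62 CPM, against 2.17 and 1.74 CPM in wild type, and Zscan4a to 9.12 and 10.2 CPM, against 5.54 and 4.53 CPM. Zscan4d rose to 6.29 and 6.38 CPM, against 4.17 and 3.47 CPM, and Zscan4b to 2.52 and 2.47 CPM, against 1.27 and 1.18 CPM. The calls of Zscan4b and Zscan4d ended without either Pml-/- library (highest adjusted p = 0.149, for Zscan4b) and with no filter on low values. That of Zscan4b also ended with DESeq2 (0.114). Copies of the family are similar in sequence, so single members are uncertain. Zscan4f was at 1.94 and 1.62 CPM, against 1.05 and 1.16 CPM, and was not called (adjusted p = 0.212).

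Markers of other cell types were measured beside these results. The 8 trophoblast markers summed to 101 and 99.4 CPM in Pml-/- cells and to 76.6 and 82.8 CPM in wild-type cells. Most of each sum was Tfap2c, and Elf5 was at 0.052 CPM or less. Of 5 tested, 1 was called higher, Tfap2c, at 70.7 and 71.9 CPM in Pml-/-, against 49.8 and 55.2 CPM in wild type (limma adjusted p = 0.000845); 1.95% of all tested genes were called higher. Eomes was not called, at 5.74 and 5.97 CPM in Pml-/-, against 6.85 and 6.57 CPM in wild type (log2 fold change -0.17, limma adjusted p = 0.503). Gata3 (0.16, adjusted p = 0.545), Krt18 (0.16, adjusted p = 0.579) and Krt8 (0.11, adjusted p = 0.694) were higher in mean and not called. The median over the tested trophoblast markers was 0.16. The 8 primitive endoderm markers summed to 78.7 and 73.5 CPM in Pml-/-, against 56.2 and 61.2 CPM in wild type, most of it Lamb1 (69.8 and 62.1 CPM, against 46.2 and 52.6 CPM; adjusted p = 0.00432), the 1 called of 4 tested. Gata6, which defines these cells, was at 0.760 and 1.03 CPM in Pml-/-, against 0.510 and 0.793 CPM in wild type.

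The 8 neural markers summed to 247 and 249.5 CPM in Pml-/-, against 268 and 278 CPM in wild type. Most of each sum was Tubb3 (193 and 195 CPM in Pml-/-, 200 and 207 CPM in wild type), which was not called (limma adjusted p = 0.466). Of 5 tested, 2 fell: Nes (32.4 and 30.7 CPM in Pml-/-, 41.8 and 44.6 CPM in wild type) and Sox1, on chromosome 8 (14.1 and 14.6 CPM in Pml-/-, 19.2 and 20.5 CPM in wild type). Of all tested genes, 3.45% were called lower. Map2 was not called, at 6.42 and 6.77 CPM in Pml-/-, against 5.19 and 4.65 CPM in wild type (log2 fold change 0.36, limma adjusted p = 0.129), and the libraries of Pax6 overlapped (0.049, adjusted p = 0.920). The call of Sox1 ended with no filter on low values (adjusted p = 0.0555). Of 10 stem cell markers 1 was called lower, Zfp42 on chromosome 8 (695 and 653 CPM in Pml-/-, 827 and 796 CPM in wild type), and 2 higher, Tfcp2l1 and Tdgf1. The call of Tfcp2l1 ended without wild-type replicate 1 (adjusted p = 0.319), without Pml-/- replicate 1 (0.0509), with DESeq2 (0.485) and with no filter on low values (0.146). That of Tdgf1 ended without 3 of the 4 libraries in turn (highest adjusted p = 0.195), with TMM scaling (0.0581), edgeR (0.0603), chromosome centring (0.0552) and no filter (0.104). Whether these markers bear on the telomere genes was not tested.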

How the data were processed

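The submitters' processing notes name cutadapt, TopHat, edgeR and the mm10 build, with no version; no source used here gives the annotation or the use of strand. The authors' deposited table holds CPM per library, beside a p-value, a false discovery rate and values on the log2 scale (fold change, mean CPM) for each gene. Each CPM column was divided by the value of 1 read, which gave whole reads for 100% of values within 0.001 reads.

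Genotypes were compared by limma 3.58.1 with a trended prior (in R 4.3.3) on log2(CPM + 1), which understates changes of low genes. It covered the 12710 genes whose mean reached 1 CPM, with Benjamini-Hochberg adjustment over all of them and a threshold of 0.05; it called 687 genes (248 higher and 439 lower in Pml-/- cells). Fold changes are Pml-/- minus wild type, and percent bounds are 95% limits of the same fit. The quasi-likelihood test of edgeR 4.0.16, run on those reads, called 620 of 14782 genes, and DESeq2 1.42.0 called 489. With 354 reads in 1 library, counting error alone gives Pot1b a coefficient of variation of 5.31%; for Dkc1, at 11542 reads, it is 0.931%. Positions and promoters came from RefSeq tables of GRCm38.p6, where 23204 symbols matched directly and 1069 by an older symbol.

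Members and gene lists were chosen with earlier results of these data known. Named genes are Pml, the 10 members, the nearest tested genes beside members that share a chromosome, up to 4 called genes of each list, all tested Zscan4 genes and the 3 genes most like the member with the largest difference. Other genes given with values were chosen after their values were seen.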

Additional observations from a re-analysis of the deposited data

How the results depend on the processing

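Over 12 alternative analyses, 0 of the 10 shelterin, telomerase and Rtel1 genes were called in each, and their lowest adjusted p was 0.394. Terf1, Tinf2, Pot1a and Pot1b kept their direction in all 12. The other 6, with differences near 0, changed sign at least once: Terf2 with DESeq2 (0.0026) and with chromosome centring (0.061), and Acd with chromosome centring (0.042), where the shift is that of the chromosome's median. Leaving out 1 library at a time gave log2 fold changes from -0.042 to 0.032 for Terf2, from -0.055 to 0.058 for Terf2ip, from -0.073 to 0.025 for Acd, from -0.18 to 0.11 for Tert, from -0.027 to 0.0098 for Dkc1 and from -0.085 to 0.13 for Rtel1. Genes called in all numbered 423 to 879 without 1 library (423 without Pml-/- replicate 2, 446 without wild-type replicate 1) and 298 with no filter on low values; telomere list genes called numbered 1 to 6 without 1 library. Chromosome 8 genes called numbered 28 to 64 without 1 library, 22 with no filter, 32 with DESeq2 and 33 with chromosome centring. Among the fits without 1 library, the totals for all genes and for chromosome 8 were highest without wild-type replicate 2. The kit entry of that library names only a DNA kit. A replicate block with all 4 libraries gave higher totals of both. The cause of these changes was not tested. The replicate numbers are not stated to pair libraries. Deviations of same-numbered libraries correlated at 0.12 over tested genes, and a replicate block gave 1198 calls. Of these, 85 were on chromosome 8, 5 in the telomere lists and 0 among the 10 genes. Pot1b had the fewest reads and the widest interval. Its replicates differed by -0.043 in Pml-/- and 0.15 in wild type (log2 scale, replicate 1 minus 2), against 0.28 and 0.096 for Tert. The trended prior sets variance by level, and the part of depth in the width was not tested. Intervals rest on 2 libraries per genotype and on the variance that the trended prior shares among genes at similar levels.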

Other observations

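Terc, the RNA component of telomerase, had 20 and 10 reads in Pml-/- and 9 and 10 reads in wild type, or 0.524 and 0.229 CPM against 0.287 and 0.227 CPM, below the filter. Its mature form carries no long poly(A) tail, and these libraries hold polyadenylated RNA, so they do not measure its level.

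Over the 4 libraries, the tested genes whose centred log2(CPM + 1) values lay nearest to those of Pot1b were Fam204a (Euclidean distance 0.014), Cpox, a heme synthesis gene (0.015), and Snx4, a sorting nexin gene (0.019). Their log2 fold changes were -0.14, -0.15 and -0.14, and none passed (limma adjusted p = 0.382, 0.187 and 0.192). They were picked by their values in the same 4 libraries, so fold changes near that of Pot1b follow from the choice.

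Mpp1, a membrane scaffold gene whose annotated span overlaps the end of Dkc1 by 44 bases and which was named after its values were seen, had 49.8 and 49.0 CPM in Pml-/-, against 39.5 and 40.7 CPM in wild type (limma, log2 fold change 0.29 with SE 0.064, adjusted p = 0.0139). That call ended without wild-type replicate 1 (adjusted p = 0.0701) and without Pml-/- replicate 1 (0.0511). Dkc1 beside it was at 362 and 371 CPM in Pml-/-, against 368 and 370 CPM in wild type.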
